A study of Mus musculus with 2 samples.

Results

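Glutathione and thioredoxin defence genes were compared between 2 B-cell lymphoma cultures, and among the 10 genes described Gsr and Mgst1 differed by 2-fold or more. Gsr, which encodes glutathione reductase, was 3.69-fold lower by its brighter probe set and 2.69-fold lower by the other on the array whose label says that the kinase gene Cdk4 is absent. Mgst1, which encodes a membrane-bound glutathione transferase, was 8.93-fold lower by 1 of its 2 probe sets, while the other lay far below the signal floor on both arrays. The glutathione peroxidase genes Gpx1 and Gpx4 differed by less than 1.02-fold by their brighter probe sets, and Gclc, Gclm, Txnrd1 and Mgst3 by less than 2-fold. Mgst2 and Hmox1 were each above the floor on a single array, so only a lower limit of their difference is known. The genes described are Mgst1, Mgst2, Mgst3, Gclc, Gclm, Gsr, Gpx1, Gpx4, Hmox1 and Txnrd1, 10 of the 18193 genes that the array names, and they were taken with all 18 probe sets that carry their symbols. They were chosen with earlier results of these arrays known, Mgst1 for its difference, so every value here is a description and none is a test.

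Both cultures came from B-cell lymphoma of the Eµ-Myc mouse, in which the heavy chain enhancer of immunoglobulin drives a Myc transgene in the B lineage and lymphoma follows. One array held RNA labelled Cdk4+/+:Eµ-Myc and the other RNA labelled Cdk4-/-:Eµ-Myc, that is, with and without the gene of cyclin-dependent kinase 4 (called the wild-type-labelled and the null-labelled array), and lymph nodes were named as the source of both. The labels give no age and do not say how many mice or tumours stand behind an array. Per the labels' protocols the culture medium of both held fetal bovine serum and 2-mercaptoethanol, a thiol commonly added to lymphocyte cultures as a reducing agent.

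Each group held 1 array, so no difference has a replicate check or a p-value, and precision is limited by having a single array per genotype. Cdk4 itself went against the labels, with its 3 probe sets between 1.18 and 3.71 on the wild-type-labelled array and between 4506 and 6958 on the null-labelled array. Directions therefore follow the labels as given and would turn if the labels were exchanged. Of 8 B-lineage markers 7 had a probe set of their own, and all 7 were above the floor on both arrays, with summed signals of 29572 and 34487. Of 12 macrophage and granulocyte markers, 4 were above the floor on the wild-type-labelled array and 10 on the null-labelled array, with summed signals of 425 and 4446. Most of the latter came from Lyz1 and Lyz2, without which the other 10 genes summed to 350 and 1188, and S100a8 and S100a9 were below the floor on both arrays. Lyz1 was bright by its shared probe sets alone, and its unshared one read 30.2 against 13.1. For 8 stromal markers these were 3 and 5 genes, and 928 and 2107, or 233 and 1330 without Pecam1, a gene also on in leukocytes (695 against 777). Of 6 T cell markers with a probe set of their own, Cd3d, Cd3e, Cd3g and Cd4 were below the floor on both arrays. Cd8a read 81.6 against 63.7 by a shared probe set, with its other probe sets below the floor on both arrays, and Thy1 read 21.0 against 201. Of 3 erythroid markers 1 was above the floor, Car2 at 69.1 against 585.

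Glutathione is a small thiol peptide that cells use to reduce peroxides and to tag reactive compounds for export. Glutamate-cysteine ligase, made of the subunits encoded by Gclc and Gclm, catalyses the limiting step of its synthesis, glutathione peroxidases and transferases consume it, and glutathione reductase restores it from its oxidised form with NADPH. Thioredoxin reductase runs a parallel thiol system, and heme oxygenase degrades heme. The transcription factor NRF2 drives many of these genes through the antioxidant response element, while BACH1 represses several of them.

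Because several of these genes are textbook NRF2 targets, the promoters of the genes described were searched for the core letters of that element, TGACNNNGC, on both strands. Windows of 300 bases, from 250 before to 50 after a transcript start, came from RefSeq on GRCm38.p6 and covered 7 of the 10 genes with 13 windows. The genes without a window were Gclc, Gsr and Hmox1. The letters were found in 3 windows, 1 each of Mgst1, Gclm and Txnrd1, and in 12.4% of all 32851 windows of the same length. Those 3 windows are shown because they hold the match. By brightest probe set, Mgst1 and Gclm were lower and Txnrd1 higher on the null-labelled array. The differences of Gclm and Txnrd1 were under 2-fold. On the log2 scale they were -0.66 and 0.50, and with 1 array per group no contrast of direction is read from them. Capitals mark the match, which reads as the reverse complement of the core in each.
Mgst1, chr6:138140277-138140576, plus strand: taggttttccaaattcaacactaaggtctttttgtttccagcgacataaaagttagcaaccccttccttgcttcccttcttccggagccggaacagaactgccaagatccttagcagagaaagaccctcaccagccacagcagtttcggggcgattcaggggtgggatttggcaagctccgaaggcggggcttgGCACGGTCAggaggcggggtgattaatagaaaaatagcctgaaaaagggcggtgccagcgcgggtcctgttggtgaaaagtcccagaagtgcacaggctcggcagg
Gclm, chr3:122245307-122245606, plus strand: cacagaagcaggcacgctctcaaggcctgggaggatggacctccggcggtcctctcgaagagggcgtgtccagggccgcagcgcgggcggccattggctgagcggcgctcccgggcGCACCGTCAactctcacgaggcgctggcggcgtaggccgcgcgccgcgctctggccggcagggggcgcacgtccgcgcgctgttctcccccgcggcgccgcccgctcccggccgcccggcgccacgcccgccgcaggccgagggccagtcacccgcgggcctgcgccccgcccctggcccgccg
Txnrd1, chr10:82858956-82859255, plus strand: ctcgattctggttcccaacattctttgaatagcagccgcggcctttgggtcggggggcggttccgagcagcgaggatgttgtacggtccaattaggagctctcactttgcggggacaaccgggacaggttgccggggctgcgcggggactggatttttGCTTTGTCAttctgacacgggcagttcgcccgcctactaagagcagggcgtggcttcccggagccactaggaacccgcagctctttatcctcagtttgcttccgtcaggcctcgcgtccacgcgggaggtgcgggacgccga
The match began 56 bases before the start in Mgst1, 134 in Gclm and 92 in Txnrd1. The other start of Mgst1 and the other 2 of Txnrd1 had no match in their windows, which says only that these letters are not there. A match is a description of letters, and no binding was measured.

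Signals are MAS5 intensities on a linear scale, and they are given for the wild-type-labelled array first and the null-labelled array second. A floor of 62.2, the median signal of both arrays, stood in for detection calls. A gene above it on both arrays has a measured fold, and a gene above it on 1 array has only a lower limit (a bound), given with the words at least. Of the 10 genes, 8 were above the floor on both arrays, Mgst2 only on the wild-type-labelled array and Hmox1 only on the null-labelled array. Of the 8, 2 were lower by 2-fold or more on the null-labelled array and 0 were higher, beside 3.27% lower and 4.26% higher among all 9418 genes measured on both arrays. Neither bound reached 2-fold, which 20.0% of the genes above the floor only on the wild-type-labelled array and 33.8% of those only on the null-labelled array did. By probe set, 14 of the 18 were above the floor on both arrays, and 3 were lower by 2-fold and 0 higher, beside 3.22% and 3.53% of all probe sets so measured. Since the genes were chosen on this contrast, nothing is read from these shares. The median log2 difference of the 10 genes was -0.10, and over all genes above the floor it was 0.001. These medians take in bounds at their limit. Over the 8 genes measured on both arrays the median was -0.16, beside 3.1e-05 for all measured genes.

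**Figure D1:**
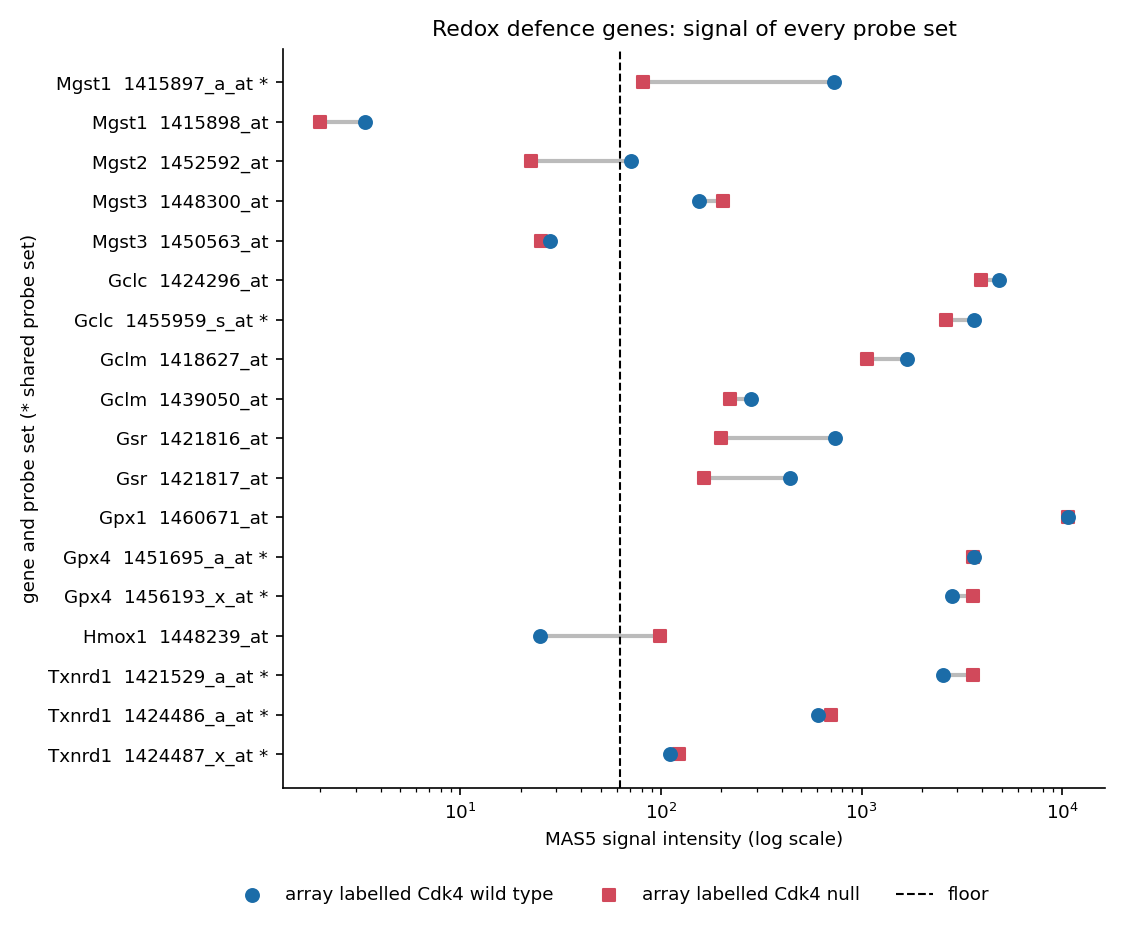
Signal intensity (log scale) of each of the 18 probe sets on the wild-type-labelled array (circles) and the null-labelled array (squares), with the floor of 62.2 as a dashed line and shared probe sets starred. The wide gaps are those of the first Mgst1 probe set (728 against 81.5), of both Gsr probe sets, and of Mgst2 and Hmox1 across the floor.

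The size of a difference was set against how far probe sets of 1 gene lie apart, the only measure of error these arrays offer. Over 3082 genes with a pair of unshared probe sets above the floor, the log2 difference of a probe set had an SD of 0.31, and 95% of pairs differed by less than 0.84. The SD was 0.37 for the 1027 genes whose dimmer probe set was dimmest (signals from 62.7 to 198) and 0.22 for the 1028 where it was brightest (above 533). Variation between tumours or cultures is not part of this spread. The 0.84 is a gap between 2 probe sets of a gene, and not a range of a single difference about 0. Shared probe sets are those marked a, s, x or f in their name, whose probes also match other transcripts, in the case of a those of the same gene. Of the 18 probe sets 7 were shared, and Gpx4 and Txnrd1 had no other kind.

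Mgst1 encodes microsomal glutathione transferase 1, a trimeric enzyme of the endoplasmic reticulum and outer mitochondrial membrane that conjugates glutathione to electrophiles and reduces lipid hydroperoxides. Its probe set 1415897_a_at read 728 against 81.5, so that the null-labelled array held 11.2% of the signal of the other. The lower value lies close to the floor. Among the 9418 measured genes this difference of -3.16 on the log2 scale was the 14th lowest. Its probe set 1415898_at read 3.34 against 2.00, below the floor on both arrays, and lies above only 8.62% and 4.84% of all probe sets there. The annotation lists the same accession, BI150149, for both probe sets, yet the fold rests on the shared one alone, with no second probe set to set it against.

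Of the other microsomal genes, Mgst2 had only a lower limit and Mgst3 a small difference. Mgst2, whose product also makes leukotriene C4 in some cells, read 71.1 against 22.6 by its only probe set, at least 1.14-fold lower. With a lower floor of 14.1, the 25th percentile of signals, both values counted as measured and the fold was 3.15. Mgst3, a relative with peroxidase activity, read 154 against 205, a 1.33-fold difference. On the log2 scale this is 0.41, above the SD of 0.31 between probe sets of a gene, which leaves out variation between cultures. The other probe set of Mgst3 read 27.9 against 25.1, below the floor on both arrays. Of the 3 remaining genes of the wider MAPEG family of eicosanoid and glutathione enzymes in membranes, Ptges and Ltc4s were below the floor on both arrays. Alox5ap, which encodes the protein that presents arachidonic acid to 5-lipoxygenase in myeloid cells, stood at 46.6 against 358, at least 5.75-fold higher on the null-labelled array. The macrophage and granulocyte markers were higher on that array too (summed signals of 425 against 4446, or 350 against 1188 without Lyz1 and Lyz2), and their part in this difference was not tested. In RNA of a whole culture, fewer cells of a type and less RNA per cell cannot be told apart. Over the 4 family genes above the floor the median log2 difference was 0.11, but over the 2 measured on both arrays, Mgst1 and Mgst3, it was -1.38.

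**Figure D2:**
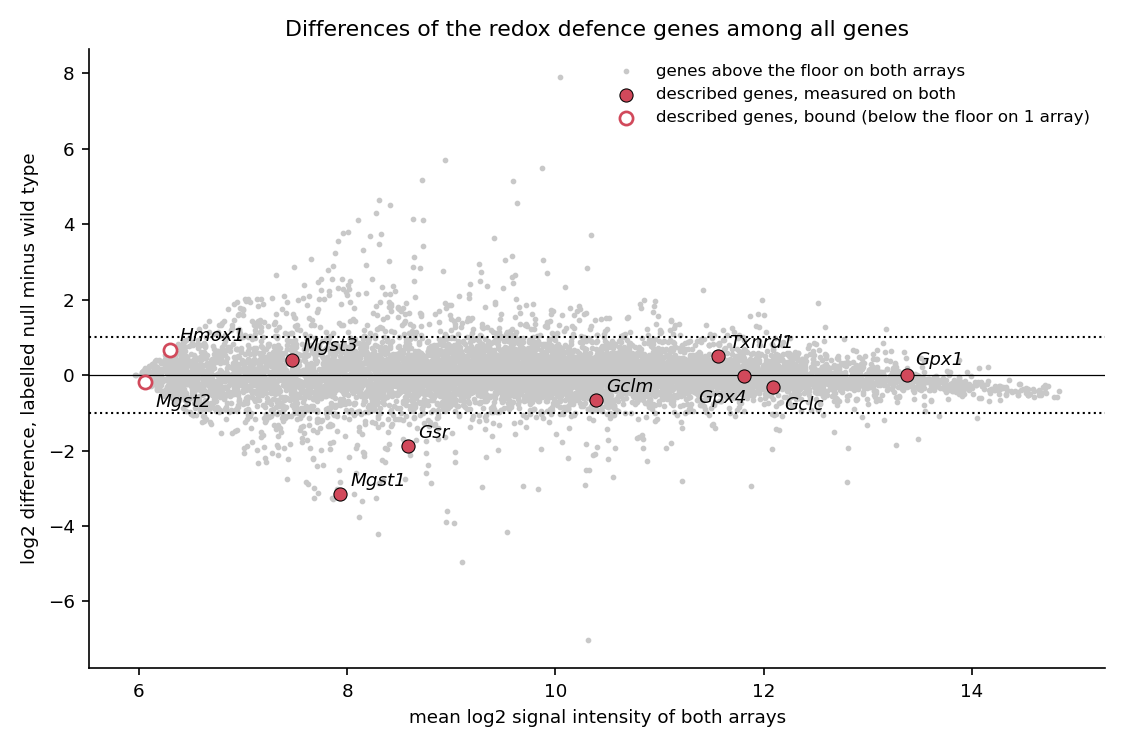
Log2 difference (null-labelled minus wild-type-labelled array) against the mean log2 signal of both arrays for the 9418 genes measured on both (grey), with the described genes as filled points where measured and open points where the value is a bound. Mgst1 (-3.16) and Gsr (-1.89) lie below the dotted line of 2-fold, and the other 8 points, 2 of them bounds, lie between the dotted lines.

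Mgst1 went against its chromosome. Chromosome 6 had a median log2 difference of 0.24 over 433 measured genes, of which 25.9% were lower on the null-labelled array, and with that median set to 0 Mgst1 was 10.6-fold lower. The 3 nearest genes above the floor on one side, Eps8, Strap and Dera, differed by 0.09, 0.22 and 0.70 on the log2 scale. On the other side Plekha5 differed by -0.57, Aebp2 by 0.68 and Pyroxd1 by 0.32. Of these 6 neighbours, 0 reached 2-fold and 5 were above 0, so these genes did not share the difference of Mgst1. They start far from it, at 386 to 663 kb on the first side and 2283 to 4205 kb on the other. Shorter distances were not covered by a gene above the floor. The 5 genes whose log2 difference lay nearest to that of Mgst1, over these 2 arrays, were Slc36a4 (-3.15), Capsl (-3.11), Ppm1l (-3.26), Nxt2 (-3.26) and Bhlha15 (-3.27).

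Gsr was the gene whose difference both probe sets carried. Probe set 1421816_at read 736 against 199 and 1421817_at read 440.3 against 164, leaving 27.1% and 37.2% of the signal on the null-labelled array. All 4 values lie well above the floor, neither probe set is shared, and both read lower on the null-labelled array. The log2 differences of -1.89 and -1.43 lie 0.46 apart, less than the 0.84 within which 95% of probe set pairs fall, and each is larger than that spread. Gsr stood 88th from the lowest of the 9418 measured genes. Chromosome 8, where it lies, had a median of 0.01, so its fold with that median set to 0 was 3.71.

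The ligase subunits that make glutathione were slightly lower on the null-labelled array. Gclc, the catalytic subunit, read 4869.7 against 3922 and 3650.4 against 2637 by its shared probe set, log2 differences of -0.31 and -0.47. Gclm, the modifier subunit, read 1687 against 1067 and 280.3 against 221, differences of -0.66 and -0.34. All 4 probe sets of the ligase were lower on the null-labelled array, by 1.24-fold to 1.58-fold, and none reached 2-fold. In size these log2 differences are at or above the SD of 0.31 between probe sets, which leaves out variation between cultures. Gclm lies on chromosome 3, where the median was -0.47 over 453 measured genes and 83.0% were lower. With that median set to 0 the fold of Gclm was 1.14, against 1.58 before. Gclc on chromosome 9, with a median of 0.02, stood at 1.26-fold lower in the same way.

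**Figure D3:**
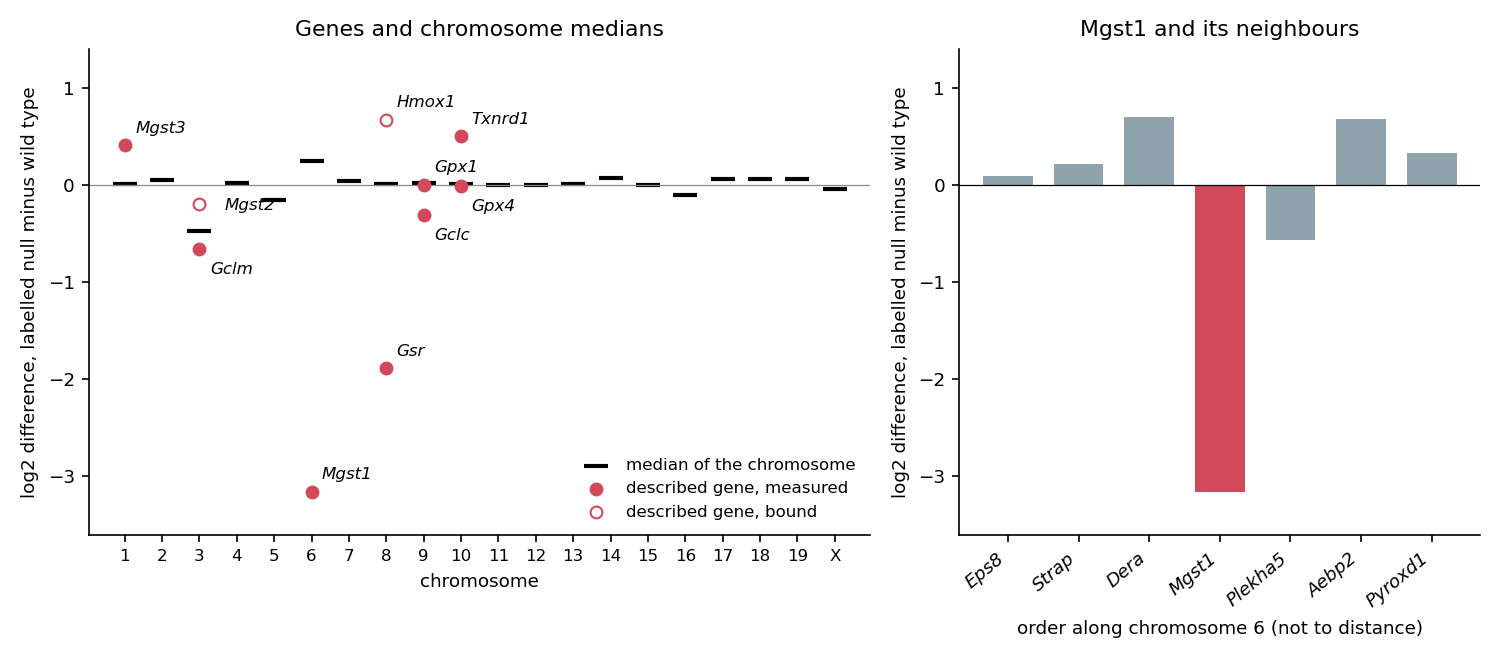
Left, log2 difference (null-labelled minus wild-type-labelled array) of each described gene at its chromosome, with the chromosome's median as a bar; right, the same difference for Mgst1 and the 3 nearest genes above the floor on each side, in order along chromosome 6. Gclm lies close to the median of chromosome 3 (-0.47), whereas Mgst1 and Gsr lie far below the medians of theirs (0.24 and 0.01).

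Gpx1 and Gpx4 were even by their brighter probe sets. Gpx1, the main cytosolic glutathione peroxidase, read 10659 against 10670.4 by its only probe set. Gpx4, which reduces phospholipid hydroperoxides in membranes and guards against ferroptosis, read 3626 against 3587 and 2827 against 3595, log2 differences of -0.02 and 0.35 that lie 0.36 apart. Both its probe sets are shared, and their signs differ. Of the other 6 peroxidase genes, Gpx2 and Gpx3 were above the floor only on the null-labelled array, at least 1.05-fold and 1.74-fold higher, and Gpx5, Gpx6, Gpx7 and Gpx8 were below the floor on both arrays. The list median was 0.03, or -0.007 over the 2 genes measured on both arrays. With the lower floor of 14.1 the list median was 0.93, and 1 gene of 5 measured was higher by 2-fold.

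Txnrd1, the selenoprotein that reduces cytosolic thioredoxin, was higher on the null-labelled array by all 3 of its shared probe sets. They read 2547 against 3606, 604 against 701 and 110.3 against 124, log2 differences of 0.50, 0.22 and 0.16. None reached 2-fold. Only the 0.50 is above the SD of 0.31 between probe sets of a gene, which leaves out variation between cultures. Hmox1, the inducible heme oxygenase, was below the floor on the wild-type-labelled array, at 24.9, and stood at 99.0 on the null-labelled array, at least 1.59-fold higher. With that lower floor it counted as measured, and the fold was 3.98. Macrophages that clear red cells hold much heme oxygenase. The complement gene C1qa stood at 1.27 against 139 and Csf1r, the receptor gene of macrophage growth factor, at 85.5 against 221 on the same arrays. The other probe sets of Csf1r read 121 against 145 and 60.7 against 72.2. The part of these markers in the difference of Hmox1 was not tested.

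The rest of the glutathione and thioredoxin pathways was described through 15 gene lists, also drawn up with earlier results known. Without the 10 genes above, the lists named 121 genes, of which 113 had a probe set with 1 symbol, 87 were above the floor on at least 1 array and 75 on both. Of the 75, 5 were higher by 2-fold on the null-labelled array (6.67%) and 4 lower (5.33%), beside 4.26% and 3.27% of all measured genes. A further 4 reached 2-fold as bounds above and 1 as a bound below. Their median log2 difference was 0.07, beside 0.001 for all genes above the floor. The counts of single lists below stand beside the same shares of all measured genes, and nothing is read from them. List medians take in bounds at their limit, unless said to cover measured genes alone.

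A second reductase went the other way from Gsr. Txnrd3, which encodes thioredoxin glutathione reductase, an enzyme that can reduce both thioredoxin and oxidised glutathione, read 391 against 1581 by its shared probe set. Its 2 unshared probe sets read 351 against 1505 and 280.2 against 1176. All 3 gave log2 differences between 2.02 and 2.10, beyond the 0.84 seen between probe sets of a gene, and Txnrd3 was 4.04-fold to 4.29-fold higher on the null-labelled array. It lies on chromosome 6, and with the median of that chromosome set to 0 the fold was 3.42. Of 11 genes in the thioredoxin list, 10 were above the floor, 1 was higher by 2-fold and 0 lower, with a median of 0.09. These counts use the brightest probe set. For Sesn2 it gave 1.12-fold higher, whereas its other probe set read 46.9 against 234, at least 3.76-fold higher. Of the glutaredoxins, which use glutathione to reduce protein disulfides, Glrx stood at 279.7 against 577 and at 207 against 481 by its other probe set, 2.06-fold and 2.32-fold higher. The list of Gsr and 4 glutaredoxin genes had a median of 0.18.

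Among the soluble glutathione transferases, Gstm5 and Gstm1, of the mu class on chromosome 3, were lower by 2-fold, and no other measured gene reached it. Gstm5 stood at 442 against 94.7, 4.66-fold lower by its only probe set, and 3.36-fold lower with the median of chromosome 3 set to 0. Gstm1 stood at 384 against 186 by a shared probe set, 2.07-fold lower, and at 261 against 149 by an unshared one, 1.75-fold lower, and with the chromosome median set to 0 it was 1.49-fold lower. Gstm3 differed in sign by a shared probe set, at 102 against 143, while its unshared one read 2.20 against 21.6, below the floor on both arrays. The mu class genes are near copies of each other, so signal can be split between them. Gstt3, of the theta class, stood at 33.4 against 157, at least 2.52-fold higher. Of 21 transferase genes 19 had a probe set of their own and 12 were above the floor, 2 lower and 0 higher by 2-fold with 1 bound above. Their median was 0.01, or -0.11 over the 8 genes measured on both arrays.

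**Figure D4:**
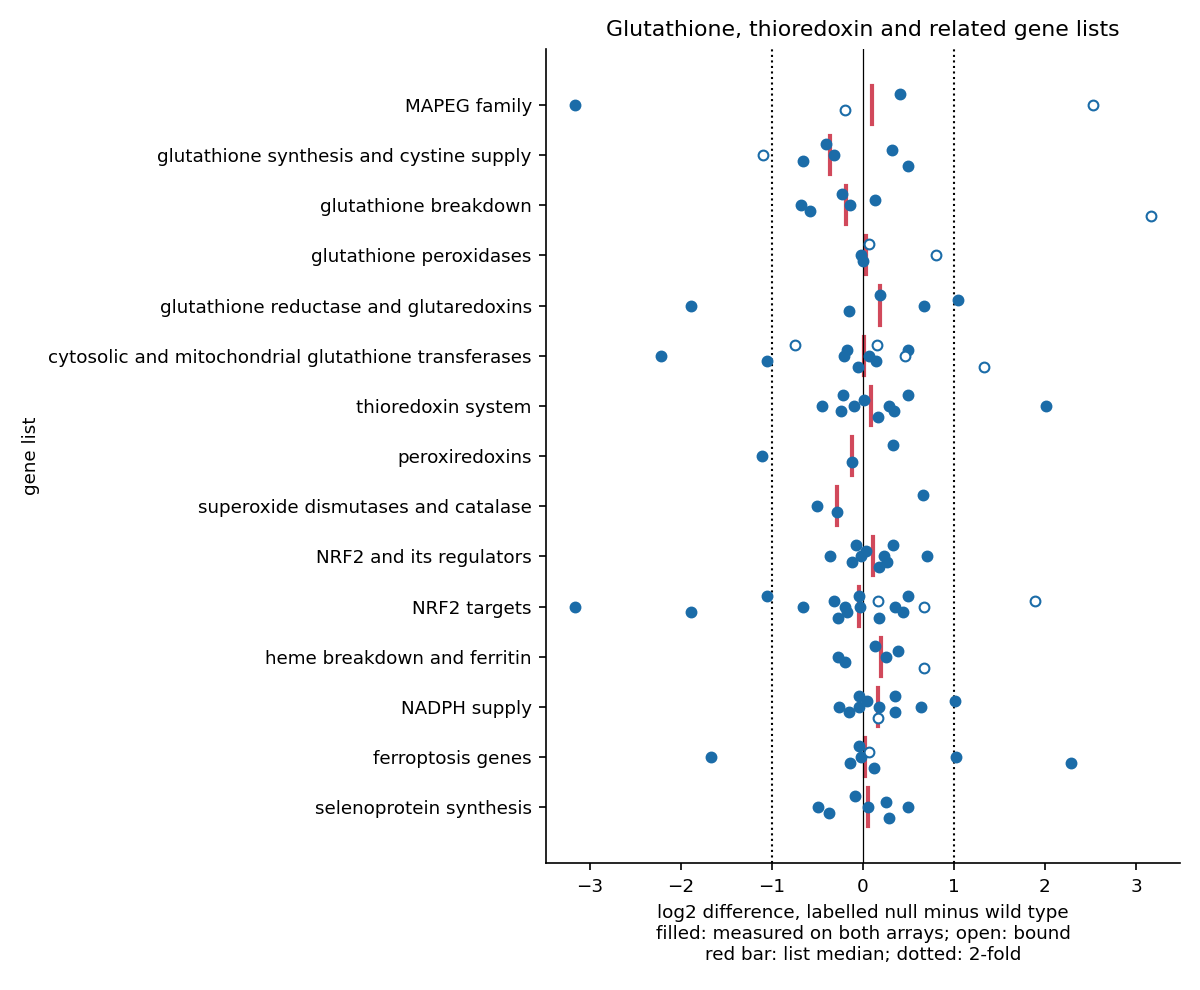
Log2 difference (null-labelled minus wild-type-labelled array) of each gene above the floor in 15 gene lists, filled where measured on both arrays and open where the value is a bound, with the list median as a red bar and 2-fold as dotted lines. List medians lie between -0.36 and 0.20, with single genes such as Txnrd3 (2.02), Gstm5 (-2.22) and Acsl4 (-1.67) outside the dotted lines.

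Genes that supply and break down glutathione differed at single points. In the synthesis and cystine supply list, 6 of 7 genes were above the floor, 0 measured genes reached 2-fold, and the median was -0.36. Cbs, which starts the route from homocysteine to cysteine, stood at 133 against 45.8, at least 2.14-fold lower, by a shared probe set, and its other one gave at least 1.34-fold lower. Slc7a11, the cystine importer, was below the floor on both arrays, at 23.3 and 15.5. Chac1, an enzyme that degrades glutathione, stood at 60.1 against 560, at least 9.002-fold higher by its only probe set. The other genes of the breakdown list did not reach 2-fold, and its median over 6 genes was -0.19.

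NRF2 and its regulators stayed under 2-fold, and so did most of its measured target genes. Of 12 regulator genes 10 were measured and 0 reached 2-fold, with a median of 0.11. Nfe2l2, which encodes NRF2, stood at 1675 against 1587 and Keap1, its inhibitor, at 1065 against 1090.3, both named after their values were seen. The dimmer probe set of Nfe2l2 read 113 against 70.4, 1.61-fold lower, and that of Keap1 792 against 713. By brightest probe set the largest measured differences were those of Bach1, at 451 against 737 (0.71), and of its B-cell relative Bach2, at 6854 against 5333 (-0.36). The other probe set of Bach1 read 80.2 against 114 (0.50), and the others of Bach2 gave -0.46 and -0.80. Of 25 target genes, 22 had a probe set of their own, 17 were above the floor and 14 were measured on both arrays. Of the 14, 3 were lower by 2-fold, namely Mgst1, Gsr and Gstm1, and 0 higher, beside 3.27% and 4.26% of all measured genes. Mgst1 and Gsr belong to the 10 genes chosen with earlier results known, and an unshared probe set of Gstm1 gave 1.75-fold. No trend of the targets is read from this count. Ephx1, an epoxide hydrolase gene, was at least 3.72-fold higher, at 33.6 against 231. The target list had a median of -0.05, or -0.18 over the 14 genes measured on both arrays. Nqo1, a commonly used NRF2 target, read 47.3 against 45.0, below the floor on both arrays.

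Peroxide and superoxide scavengers outside the glutathione system were mixed. Prdx4, the peroxiredoxin of the endoplasmic reticulum, stood at 11621 against 5379, 2.16-fold lower, and its other 3 probe sets, at 548 against 272, 321 against 204 and 206 against 52.0, were lower as well. Of the 6 peroxiredoxin genes 3 had a probe set of their own. Of the superoxide dismutase and catalase genes 3 of 4 were measured and 0 reached 2-fold. Sod2, the mitochondrial dismutase, stood at 4279 against 3009, and its other 3 probe sets were lower by 1.41-fold to 2.23-fold. Cat, catalase, stood at 1774 against 2814 by a shared probe set and at 1742 against 1927 by the other.

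Among genes of heme, NADPH and selenoprotein supply, 1 measured gene reached 2-fold. Of the heme breakdown and ferritin list, 6 of 7 genes were above the floor and 0 reached 2-fold, with a median of 0.20. Its largest measured differences were those of Slc48a1, a heme transporter gene, at 553 against 723, and of Fth1, the ferritin heavy chain gene, at 14330 against 11863. In the NADPH list 1 of 10 measured genes was higher, the cytosolic isocitrate dehydrogenase gene Idh1 at 484 against 976, with a median of 0.17. Its other shared probe set gave 1.78-fold. In the selenoprotein list 0 of 7 reached 2-fold, with a median of 0.06, Secisbp2, which encodes a protein that reads the selenocysteine signal, at 1020.2 against 1445, and Pstk, a kinase gene of selenocysteine synthesis, at 623 against 444.

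Ferroptosis is a death by lipid peroxidation that Gpx4 opposes. Of the 12 genes of its list 7 were measured, 2 of them higher by 2-fold and 1 lower, beside 4.26% and 3.27% of all measured genes. As the list was drawn up with earlier results known, nothing is read from these counts. Acsl4, which loads membranes with oxidisable fatty acids, stood at 3132 against 986, 2902 against 670.1 and 1908 against 397 by its 3 probe sets, 3.18-fold to 4.81-fold lower on the null-labelled array. Gch1, which starts the synthesis of the antioxidant tetrahydrobiopterin, stood at 113 against 549, 4.87-fold higher, and at 34.8 against 114 by its shared probe set, at least 1.84-fold higher. Lpcat3, which builds such fatty acids into phospholipids, stood at 991 against 2011, 2.03-fold higher, and at 1.71-fold with the median of chromosome 6 set to 0. Over the 8 genes of the list above the floor the median was 0.03, and over the 7 measured on both arrays -0.02, with Gpx4 itself at -0.02.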

How the data were processed

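RNA of 2 cultures was labelled with biotin and hybridised to 1 Affymetrix mouse array each, per the labels' protocols. The authors deposited signal intensities on a linear scale for 45101 probe sets, and MAS5 made them, per the submitters' processing notes, with its version not given in the sources used here. The deposited intensities had a trimmed mean of 500.003 on both arrays (2% trimmed at each end), so no rescaling was needed. Signals below the floor of 62.2, the median over both arrays without the 64 control probe sets, were set to it before log2 was taken. Gene names came from the platform annotation at GEO (34945 probe sets with 1 symbol, 932 with several, left out), and the brightest stood for its gene. Chromosomes and gene order came from RefSeq on GRCm38.p6. Fold thresholds were 2-fold. With 1 array per group no test was made. The genes, lists and rule for named genes (the 10 genes, list genes past 2-fold or else the 2 largest, genes nearest to Mgst1 in difference or place) were chosen with earlier results of these data known. Python 3.11.15, numpy 2.4.6 and pandas 2.3.3 were used, and the calculation was tested on simulated data. That test changed only genes with a bright probe set, by more than 2-fold, so it says little about bounds and signals near the floor. Other floors, a pseudocount of 32, quantile normalization, other probe set choices and chromosome medians set to 0 were the alternatives.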

Additional observations from a re-analysis of the deposited data

How the results depend on the processing

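No paired analysis was possible because each group held 1 array. Mgst1, Gsr, Gclc, Gclm, Mgst3, Hmox1 and Txnrd1 kept their sign under each of the 7 alternatives that gave a value; Mgst2, Mgst3 and Hmox1 had none with the highest floor. Without shared probe sets Mgst1, Gpx4 and Txnrd1 had no value, and 1 gene was lower. The mean of probe sets put Mgst1 at -1.58, by averaging in the probe set below the floor. The floor at the 75th percentile, 458, made Mgst1 and Gsr bounds of -0.67 and -0.69 (log2), left 0 measured genes lower, and left 2 list genes higher and 2 lower. The floor at the 25th put Mgst2 at -1.65 and Hmox1 at 1.99, with 1 gene higher and 14 list genes higher. The pseudocount gave -2.74 for Mgst1, -0.92 for Mgst2 and 1.20 for Hmox1, with 1 gene higher. Quantile normalization left 3 list genes higher, and so did chromosome medians set to 0, which moved Gclm to -0.19. For Mgst2 the chromosome step shifted a bound from -0.19 to 0.28, which is not a measured difference and gives no direction. All 14 list genes past 2-fold kept their sign wherever they had a value, only Txnrd3 and Acsl4 (2 genes) had a value past 2-fold under all 7, and the medians of 5 of 15 lists changed sign under at least 1 alternative. Signals near the floor limit the folds of Mgst1, Mgst2 and Hmox1.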
